A study of Mus musculus with 15 samples.

Results

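Common myeloid progenitors (CMP) from the bone marrow of Trappc1 knockout (KO) mice were compared with CMP from wild-type (WT) mice over every expressed gene. The libraries were chosen by their titles, KO CMP numbers 1 to 4 and WT CMP numbers 1 to 4, and make up 8 of the 15 RNA-seq libraries of the series. The rest are granulocyte-monocyte progenitors (GMP), 4 WT and 3 KO. Cells of both genotypes came from a sort for CD117 and CD34 without lineage markers or Sca1 and with low CD16/32, carried no treatment, and have no age, sex or strain in the labels. The sources used here do not give how Trappc1 was deleted, in which cells or with which Cre line. Nothing in the labels ties a library to its own animal, and the p-values then reflect only how these libraries vary, in part perhaps technically. Library numbers 1 and 2 behaved unlike numbers 3 and 4, in WT as well as in KO, so each effect is given over all numbers, within each pair of numbers, and for the main genes in every library.

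TRAPP complexes are multi-subunit tethers that activate Rab GTPases and guide vesicles from the endoplasmic reticulum (ER) to the Golgi and within it, and Trappc1 is a small subunit of the core that the TRAPP II and TRAPP III forms share. Cells that secrete or store much protein depend on this route, and maturing myeloid cells load proteases and peroxidase into granules through it. CMP are bone marrow progenitors that give rise to granulocyte-monocyte progenitors and to megakaryocyte-erythroid progenitors. Granule, monocyte, erythroid and megakaryocyte transcripts are found in the sorted population side by side.

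Primary granule genes were among the most abundant transcripts that fell in KO libraries 1 and 2, and the 250 bases before the start of Elane, Prtn3 and Mpo (RefSeq, GRCm38.p6, plus strand) are shown because these proximal promoters are known to be driven by ETS and C/EBP factors. Capitals mark the ETS-type core GAGGAA, searched on both strands.
Elane, chr10:79886062-79886311: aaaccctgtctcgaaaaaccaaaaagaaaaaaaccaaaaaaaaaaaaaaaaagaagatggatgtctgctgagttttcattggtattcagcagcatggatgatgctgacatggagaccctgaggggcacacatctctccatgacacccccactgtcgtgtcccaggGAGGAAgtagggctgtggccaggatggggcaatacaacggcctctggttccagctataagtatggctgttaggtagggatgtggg
Prtn3, chr10:79879417-79879666: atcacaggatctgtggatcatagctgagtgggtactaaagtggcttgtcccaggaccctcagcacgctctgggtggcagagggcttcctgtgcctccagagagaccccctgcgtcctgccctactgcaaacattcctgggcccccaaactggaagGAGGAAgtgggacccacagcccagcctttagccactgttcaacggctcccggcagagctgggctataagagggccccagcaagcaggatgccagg
Mpo, chr11:87793534-87793783: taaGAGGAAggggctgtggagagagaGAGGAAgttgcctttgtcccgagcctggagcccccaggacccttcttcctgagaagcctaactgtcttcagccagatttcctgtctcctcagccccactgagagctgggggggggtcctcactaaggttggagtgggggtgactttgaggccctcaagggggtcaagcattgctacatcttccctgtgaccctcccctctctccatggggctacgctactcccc
GAGGAA or its reverse complement was present in 23.1% of 27025 promoter windows of this length. It occurred 1 time in the Elane window, 80 to 85 bases before the start, and 1 time in the Prtn3 window, 90 to 95 bases before the start. The Mpo window held 2 copies, between 219 and 247 bases before the start. The C/EBP-type motif TTGCNNAA, which does not overlap GAGGAA in letters, was present in 9.55% of windows and in none of these 3. A match is a description of the letters only.

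The targeted gene was lowest in KO. Trappc1 lies on chromosome 11 at 69323980 to 69325793 of GRCm38, on the plus strand (ENSMUSG00000049299.14). Counts of RNA fragments scaled to library size (CPM) are given in the order of libraries 1 to 4. Trappc1 measured 18.4, 26.2, 18.8 and 25.2 CPM in WT and 5.56, 3.83, 11.7 and 13.4 CPM in KO, with no overlap of the groups. The KO libraries thus held 30.2%, 14.6%, 62.4% and 53.3% of the WT library with the same number. The exact permutation test over the 70 splits of 4 against 4 had p = 0.0286 (two-sided), which is the lowest it can reach, and swaps within library numbers alone cannot go below 0.125. Fitted with edgeR's quasi-likelihood test, the log2 fold change was -2.25 ± 0.21 (SE) in numbers 1 and 2 and -0.80 ± 0.19 in numbers 3 and 4, and the difference between the effects had an adjusted p of 0.00689. Trappc1 passed in numbers 1 and 2 (adjusted p = 1.03e-05), but in edgeR not in numbers 3 and 4 (adjusted p = 0.263) nor over all numbers (-1.36 ± 0.41, adjusted p = 0.243). DESeq2 called it in both (adjusted p = 0.017 and 0.0267). Of the 14 TRAPP subunits tested, Trappc10 and Trappc2 also passed in numbers 1 and 2. Of all tested genes 18.5% passed there, so these calls are not read as a trait of TRAPP subunits. Trappc10, a TRAPP II subunit, measured 106, 98.5, 68.5 and 58.1 CPM in WT and 68.4, 73.5, 61.4 and 55.1 CPM in KO. It was lower in KO libraries 1 and 2 than in WT libraries 1 and 2 (-0.52 ± 0.10) but not than in WT libraries 3 and 4 (0.16 ± 0.10, adjusted p = 0.24). Trappc2, the subunit sedlin, measured 6.98, 8.43, 4.42 and 4.67 CPM in WT and 5.67, 3.70, 4.71 and 4.16 CPM in KO, and was not called without KO library 2 (-0.44) or WT library 2 (-0.58), nor with only the 8 CMP libraries in the fit (-0.72, adjusted p = 0.0839). Which exons were deleted is not given, so these levels show transcript and not lost function.

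The labelled cell type was checked against its sort markers. Kit, which encodes CD117, lay between 331 and 419 CPM in all 8 CMP libraries, and Cd34 between 525 and 746 CPM. Fcgr3, a CD16/32 gene, lay between 36.6 and 115 CPM in WT CMP and between 239 and 315 CPM in WT GMP. In KO CMP Fcgr3 lay between 12.9 and 31.1 CPM, below every WT CMP library. Of T cell surface genes in the lineage cocktail, Cd4 was at most 3.8 CPM in any CMP library. KO library 2 held more Cd8a (9.76 CPM) and Cd3e (2.53 CPM) than the other 7, which were at most 1.54 and 0.367 CPM, and the part of T cell RNA in the results on that library was not tested. Totals of the 8 libraries ran from 68.17 to 120.3 M units, or 17.04 to 30.07 M fragments at an assumed 4 units a fragment.

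KO libraries 1 and 2 stood apart from the other 6 CMP libraries beyond Trappc1. Xist, the RNA that coats the inactive X chromosome, measured 2.17, 0.833, 0.297 and 0.237 CPM in WT and 109.5, 203.8, 0.0944 and 0.0416 CPM in KO. All 4 Y-linked genes tested (Ddx3y, Eif2s3y, Kdm5d and Uty) were present in every library, with Ddx3y at 101, 89.9, 75.0 and 63.7 CPM in WT and 64.2, 83.4, 67.4 and 62.5 CPM in KO. The same KO libraries held more RNA of the stromal and endothelial list, which has 21 tested members of 22. Its summed level was 274, 277, 236 and 225 CPM in WT and 398, 465, 222 and 219 CPM in KO. In numbers 1 and 2, 14 members were higher and 1 lower, against 8.23% and 10.2% of all tested genes. Cxcl12, a chemokine of marrow stroma, measured 12.3, 15.1, 1.19 and 0.779 CPM in WT and 91.0, 127, 3.11 and 2.31 CPM in KO, Sparc 0.661, 1.49, 0.717 and 0.361 CPM in WT and 12.5, 18.1, 0.692 and 1.08 CPM in KO, and Col1a2 3.16, 4.14, 2.67 and 2.02 CPM in WT and 24.0, 34.4, 1.59 and 1.30 CPM in KO. The part of Xist-bearing or stromal cells in the results on numbers 1 and 2 was not tested. Numbers 3 and 4 hold none of these libraries, so the fold changes there stand without them, while the estimate of spread uses all libraries.

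WT libraries 1 and 2 also differed from WT libraries 3 and 4. At an adjusted p below 0.05 edgeR found 1863 genes higher (12.3% of 15181 tested) and 1616 lower (10.6%) in WT numbers 1 and 2 than in WT numbers 3 and 4. The values of Elane, a serine protease of neutrophil granules, show the size of it, with 3488, 3878, 1021 and 1183 CPM in WT and 228, 336, 992 and 1105 CPM in KO. KO libraries 3 and 4 overlapped WT libraries 3 and 4, while KO libraries 1 and 2 lay below all 6 others. For this reason KO libraries 1 and 2 were also set against WT libraries 3 and 4, a comparison added after the data were seen. It found 1656 genes higher (10.9%) and 1879 lower (12.4%). It shares its KO libraries with the comparison within numbers 1 and 2, so values of both are given side by side. What separates the number sets is not in the labels, so an effect on KO libraries 1 and 2 and the condition of those libraries cannot be told apart.

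**Figure D1:**
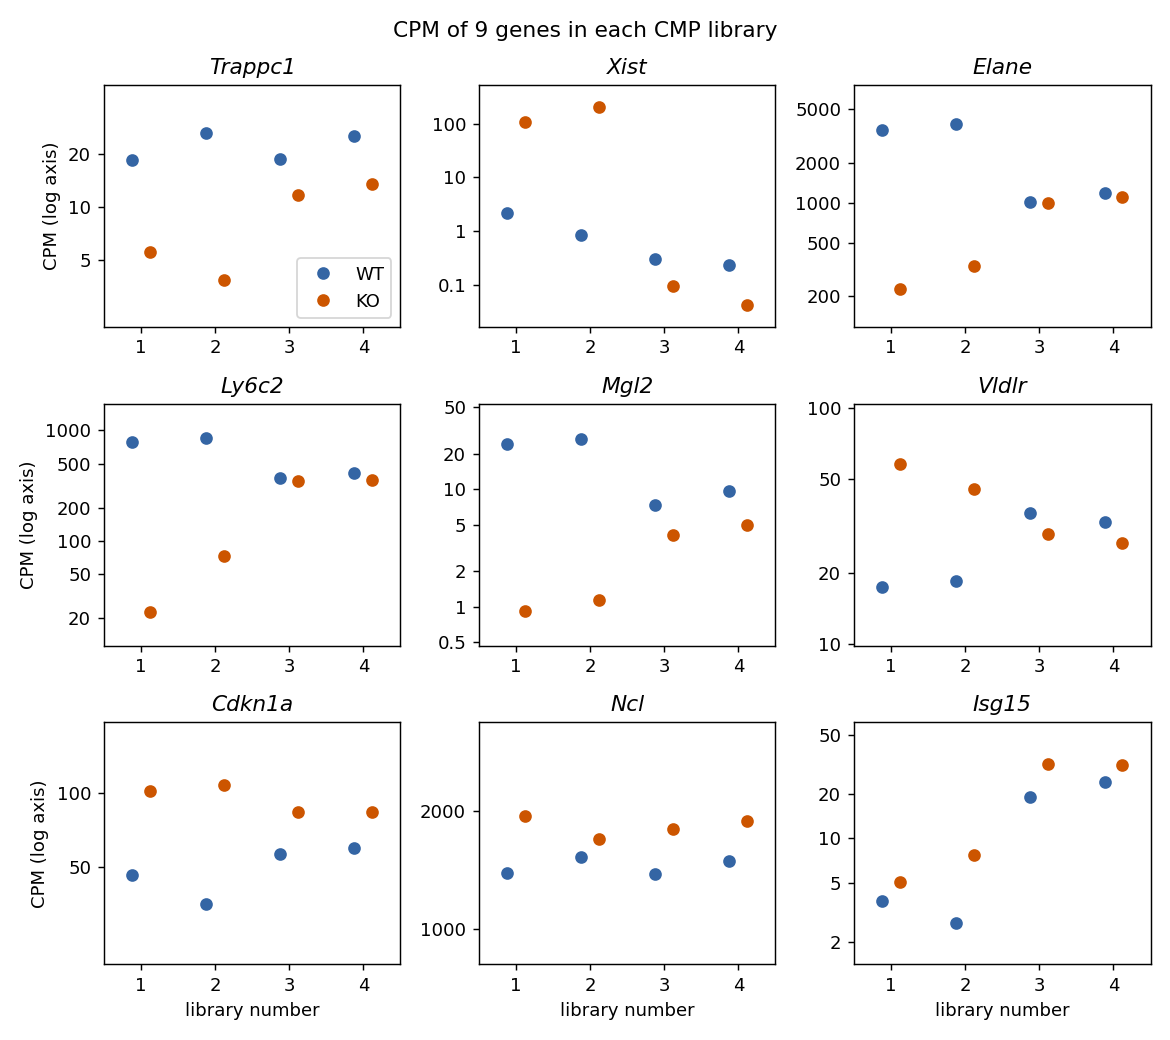
CPM (log axis) of 9 genes in each CMP library, by library number, with 1 point per library (blue WT, orange KO). Trappc1, Mgl2, Cdkn1a, Ncl and Isg15 keep the KO on 1 side of the WT in every number, which the choice of Mgl2, Cdkn1a and Isg15 required. Elane and Ly6c2 are apart mainly in numbers 1 and 2, and WT levels of Elane, Vldlr and Isg15 shift between numbers 2 and 3.

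Over all 4 numbers edgeR called 0 genes (0.0%), and 1761 (11.6%) had an unadjusted p under 0.05. DESeq2 called 133 genes higher and 227 lower, and edgeR without WT library 4 called 2 higher and 48 lower, and without KO library 1 it called 0 higher and 1 lower. In numbers 1 and 2, 1249 genes were higher (8.23%) and 1552 lower (10.2%). Leaving out WT library 1 or WT library 2 brought the genes higher to 814 and 722. In numbers 3 and 4, 1 gene was higher (0.00659%) and 0 lower, and 938 higher (6.18%) and 791 lower (5.21%) had an unadjusted p under 0.05. DESeq2 called 73 higher and 65 lower there. The fit with library number as a block called 2 and 2, and edgeR called 9 and 37 without KO library 1, 8 and 34 without KO library 2, and 0 and 4 without KO library 3. Without any of KO library 4, WT library 1 or WT library 2 no gene was called higher there. The KO effect itself differed between the number sets for 463 genes in the upward (3.05%) and 697 in the downward direction (4.59%) of numbers 1 and 2. That upward count was 278, 208, 261 and 287 without KO library 3, KO library 4, WT library 2 and WT library 3. No overlap between the 4 KO and the 4 WT libraries was found for 492 genes higher (3.24%) and 544 lower (3.58%), and KO lay above WT in each of the 4 numbers for 2031 genes (13.4%) and below for 2209 (14.6%).

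The comparisons within numbers 1 and 2 and within numbers 3 and 4 share no CMP library. Of the 1249 genes higher in numbers 1 and 2, 165 (13.2%) were also higher in numbers 3 and 4 at an unadjusted p under 0.05, which is 17.6% of the 938 genes there, and 31 were lower. Of the 1552 genes lower in numbers 1 and 2, 271 (17.5%) were lower in numbers 3 and 4 as well, 34.3% of the 791 genes there, and 45 were higher. By sign alone, 60.9% of the genes higher and 69.6% of the genes lower kept their direction. Of all 15181 tested genes, 7162 were positive and 7954 negative in numbers 3 and 4.

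**Figure D2:**
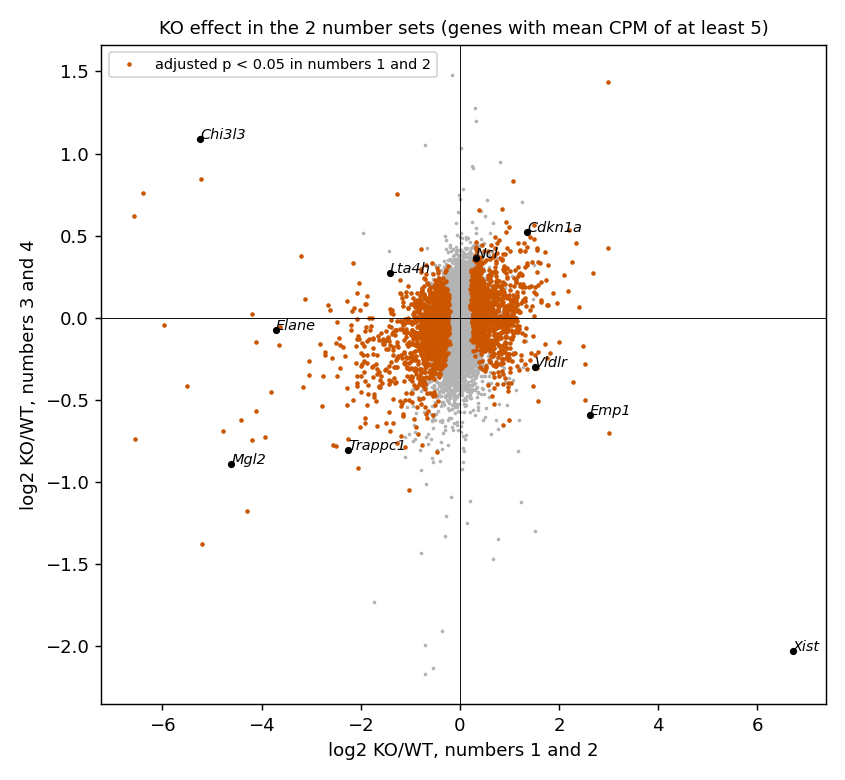
Log2 KO/WT in numbers 1 and 2 (x axis) against numbers 3 and 4 (y axis) for genes with a mean CPM of at least 5, where orange points passed an adjusted p of 0.05 in numbers 1 and 2. Most orange points lie within a narrow band around 0 on the y axis. Mgl2 and Trappc1 lie low on both axes, Cdkn1a and Ncl high on both, and Chi3l3, Lta4h, Emp1 and Xist have opposite signs.

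Among genes with the same sign in both number sets, the lower ones included lectins, a protease and receptors of differentiated myeloid cells. Most were picked for passing in numbers 1 and 2 and an unadjusted p under 0.05 in numbers 3 and 4. They also had to keep the same sign in each number. Such a choice fixes the sign and favours separated groups, so neither is read as a result. In bulk RNA, fewer cells of a type and less RNA per cell cannot be told apart. Mgl2, a macrophage galactose-type lectin, measured 24.3, 26.5, 7.37 and 9.56 CPM in WT and 0.924, 1.14, 4.09 and 5.01 CPM in KO. KO lay below WT in every number, which the choice of this gene required, and every KO library lay below all WT libraries. The log2 fold change was -4.61 ± 0.17 in numbers 1 and 2 (adjusted p = 1.06e-08). Numbers 3 and 4 gave -0.89 ± 0.14 (adjusted p = 0.107). Its neighbour and close paralog Clec10a measured 12.7, 11.2, 47.7 and 57.9 CPM in WT and 8.42, 8.95, 28.3 and 31.7 CPM in KO, with WT numbers 3 and 4 the highest. Clec10a fell in numbers 1 and 2 (-0.46 ± 0.13, adjusted p = 0.023) and gave -0.81 ± 0.12 in numbers 3 and 4 (adjusted p = 0.0967, or 0.0433 with a replicate block). Clec10a was not called in numbers 1 and 2 without KO library 1 (-0.42) or WT library 1 (-0.36). Reads shared by these paralogs could be split between them by the counting. Mgl2 and Clec10a lie 804.5 and 830.4 kb from Trappc1. Within 1 Mb of Trappc1, 17 of 82 other tested genes (20.7%) were called in numbers 1 and 2, against 18.5% of all genes, and 12 (14.6%) had an unadjusted p under 0.05 in numbers 3 and 4, against 11.4%. Those lower by both criteria were Mgl2, Clec10a, Pik3r6, 2310047M10Rik, Tnfsf13, Asgr2 (-2.23 and -1.67) and Alox12e (-8.72 and -1.74). Of all 15181 tested genes, 271 were lower by both. Whether nearness to Trappc1 plays a part was not tested.

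Lair1, an inhibitory collagen receptor of leukocytes, measured 50.6, 55.8, 29.0 and 29.9 CPM in WT and 20.98, 20.8, 20.8 and 20.98 CPM in KO. All 4 KO libraries lay near the same level, below every WT library. The change was -1.35 ± 0.08 in numbers 1 and 2 and -0.50 ± 0.08 in numbers 3 and 4 (adjusted p = 0.0967). Prss34, a mast cell and basophil protease, measured 61.6, 69.2, 19.9 and 25.8 CPM in WT and 1.02, 5.56, 10.7 and 9.46 CPM in KO, again with no overlap (-4.30 ± 0.47 and -1.18 ± 0.41). Abca13, a lipid transporter of the ABC family, measured 29.0, 29.6, 3.22 and 1.71 CPM in WT and 0.394, 1.18, 1.01 and 0.915 CPM in KO. Its WT level in numbers 1 and 2 was far above that in numbers 3 and 4, and the changes were -5.20 ± 0.37 and -1.38 ± 0.35. Ptpro, a receptor tyrosine phosphatase, gave -2.05 ± 0.19 and -0.92 ± 0.18, and Cyp4f18, a fatty acid hydroxylase of neutrophils, -1.02 ± 0.23 and -1.05 ± 0.22. Cyp4f18 moved as much in numbers 3 and 4 as in numbers 1 and 2, with 5.88, 6.92, 9.68 and 11.5 CPM in WT and 2.11, 4.17, 4.90 and 5.31 CPM in KO. Abca9 (-2.50 ± 0.30 and -0.78 ± 0.28) and Lrrc16a (-1.11 ± 0.27 and -0.79 ± 0.27), an actin capping regulator, complete the lower genes chosen by size. All of these passed in numbers 1 and 2, which the choice of shared genes required, and in numbers 3 and 4 none passed after adjustment. In numbers 1 and 2 Cyp4f18 was not called without WT library 2 (-0.90), nor Lrrc16a without KO library 1 (-0.79) or WT library 2 (-0.98).

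Genes that were higher in both sets included the p53 targets Cdkn1a, Zmat3 and Plk2. The same choice applied, so KO above WT in each number was required and separated groups were favoured. Cdkn1a, the CDK inhibitor p21, measured 46.6, 35.4, 56.7 and 60.0 CPM in WT and 103, 108, 84.1 and 83.6 CPM in KO. Every KO library lay above every WT library, by 1.36 ± 0.11 in numbers 1 and 2 (adjusted p = 4.12e-06). Numbers 3 and 4 gave 0.52 ± 0.11 (adjusted p = 0.234). Zmat3, a p53-induced RNA-binding protein, measured 4.21, 4.51, 6.92 and 6.08 CPM in WT and 19.0, 21.1, 8.66 and 10.2 CPM in KO, also without overlap (2.20 ± 0.17 and 0.54 ± 0.17). Plk2, a stress-responsive polo-like kinase, gave 0.93 ± 0.18 and 0.58 ± 0.18, and Lmna, the A-type lamin, 1.08 ± 0.24 and 0.83 ± 0.24. The adhesion molecule Icam4 gave 0.85 ± 0.19 and 0.66 ± 0.19, and the serpin Serpina3f, of a multigene family, 0.94 ± 0.21 and 0.53 ± 0.21. Isg15, an interferon-induced ubiquitin-like protein, measured 3.77, 2.67, 19.0 and 24.0 CPM in WT and 5.11, 7.70, 31.6 and 31.5 CPM in KO. Within each number the KO was higher, but WT libraries 3 and 4 lay above KO libraries 1 and 2 (KO 1 and 2 against WT 3 and 4, -1.75 ± 0.22). In numbers 1 and 2 Isg15 was not called without KO library 2 (0.67) or WT library 2 (0.76), Icam4 without KO library 1 (0.71) or WT library 1 (0.67), Lmna without WT library 2 (0.96) or Serpina3f without WT library 1 (0.93) or WT library 2 (0.95). Cxcl12, given above, rose by 2.99 ± 0.27 in numbers 1 and 2 and measured 1.44 ± 0.32 in numbers 3 and 4.

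Across all 4 numbers together, where no gene passed, 8 of the 10 genes with the smallest p-values (5 higher and 5 lower, mean CPM of at least 5) had fitted changes under 1 log2 unit. The other two were Prss34 (-2.71 ± 0.54) and Abca13 (-4.17 ± 0.83), given above, whose changes were large and uneven between the number sets. Ncl, the nucleolar protein nucleolin, measured 1387, 1523, 1379 and 1487 CPM in WT and 1940, 1697, 1799 and 1887 CPM in KO. The log2 ratios of same-numbered libraries were 0.48, 0.16, 0.38 and 0.34, and the fitted change was 0.34 ± 0.07 (adjusted p = 0.192). Ifi47, an interferon-inducible GTPase, measured 74.9, 81.6, 89.6 and 95.0 CPM in WT and 129, 129, 108 and 116 CPM in KO (0.50 ± 0.09). Ppa1, a pyrophosphatase, gave 0.49 ± 0.10, Gmds, an enzyme of GDP-fucose synthesis, 0.53 ± 0.10, and Khdrbs3, an RNA-binding splicing regulator, 0.69 ± 0.14. Among lower genes, Acox3, a peroxisomal oxidase, measured 70.9, 71.7, 70.9 and 64.6 CPM in WT and 37.6, 40.7, 53.4 and 47.7 CPM in KO (-0.63 ± 0.11). Peli2, an E3 ligase of the Pellino family, gave -0.51 ± 0.10, and Mxd4, a MAX dimerization partner that antagonizes MYC, -0.51 ± 0.10. In each of these 8 genes no KO library overlapped a WT library. They were chosen by the smallest p over these same libraries, which favours such a separation, so nothing is read from it. Of all tested genes, 3.24% were higher and 3.58% lower without overlap.

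In numbers 3 and 4 alone the genes with the smallest p-values had changes under 1 log2 unit, apart from Chi3l3. Odc1, the first enzyme of polyamine synthesis, measured 296, 287, 265 and 292 CPM in WT and 366, 360.5, 376 and 391 CPM in KO. KO was above WT in all numbers, by 0.46 ± 0.07 in numbers 3 and 4 (adjusted p = 0.0967, or 0.0445 with a replicate block) and 0.32 ± 0.07 in numbers 1 and 2. Hspd1, a mitochondrial chaperonin, measured 494, 542, 459.6 and 509 CPM in WT and 650.4, 624, 612 and 649.8 CPM in KO (0.38 ± 0.07), and Nolc1, a nucleolar phosphoprotein, 238, 246, 226 and 243 CPM in WT and 303, 261, 304 and 303 CPM in KO (0.37 ± 0.08). Trib1, a pseudokinase that promotes C/EBPα degradation, measured 65.9, 60.9, 26.3 and 21.3 CPM in WT and 77.7, 88.1, 41.6 and 33.4 CPM in KO (0.66 ± 0.12 in numbers 3 and 4 and 0.39 ± 0.12 in numbers 1 and 2). Ung, a uracil glycosylase, and Eif3j, an initiation factor subunit, were higher in KO libraries 3 and 4 (0.39 ± 0.07 and 0.38 ± 0.07, unadjusted p = 0.000125 and 0.000168), with -0.05 ± 0.07 and -0.14 ± 0.07 in numbers 1 and 2. Runx2, a transcription factor of osteoblasts and some myeloid progenitors, measured 125, 114, 168 and 149 CPM in WT and 104, 109.9, 114 and 105 CPM in KO (-0.53 ± 0.10 and -0.16 ± 0.10). Gatm, an enzyme of creatine synthesis, measured 149, 151, 115 and 114 CPM in WT and 73.7, 81.2, 89.8 and 88.5 CPM in KO (-0.36 ± 0.07 and -0.96 ± 0.07).

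Chi3l3, a chitinase-like secreted protein, was the single gene that passed in numbers 3 and 4, and it moved the opposite way in numbers 1 and 2. It measured 12.1, 11.5, 2.38 and 2.01 CPM in WT and 0.217, 0.397, 4.95 and 4.42 CPM in KO. The change was 1.09 ± 0.13 in numbers 3 and 4 (adjusted p = 0.0258). It was -5.24 ± 0.17 in numbers 1 and 2 (adjusted p = 5.3e-09). For numbers 3 and 4 it was no longer called without KO library 3 (1.01), KO library 4 (1.17), WT library 1 (1.09), WT library 2 (1.09), WT library 3 (1.22) or WT library 4 (0.97), nor with only the 8 CMP libraries (1.11, adjusted p = 0.578). Ngp, a neutrophil granule protein, measured 31.5, 28.5, 3.92 and 7.03 CPM in WT and 0.476, 0.248, 8.84 and 9.55 CPM in KO. Its KO values bracketed the WT values of numbers 3 and 4, with -6.38 ± 0.29 in numbers 1 and 2 and 0.76 ± 0.21 (unadjusted p = 0.00352) in numbers 3 and 4. Lta4h, a leukotriene B4 synthesis enzyme, measured 546, 540.3, 207 and 224 CPM in WT and 195, 214, 273 and 247 CPM in KO, so that WT libraries 1 and 2 stood alone and the other 6 libraries lay between 195 and 273 CPM. Cldn15 (a claudin), Cxcl2 (a neutrophil chemokine) and Ttc39c also combined a negative change in numbers 1 and 2 (-3.21 ± 0.14, -1.26 ± 0.25 and -0.78 ± 0.12) with a positive one in numbers 3 and 4 (0.37 ± 0.13, 0.75 ± 0.25 and 0.42 ± 0.12). In the other direction Emp1, a small membrane protein, measured 2.12, 2.29, 18.9 and 20.1 CPM in WT and 11.4, 15.8, 13.1 and 12.8 CPM in KO. Here WT libraries 1 and 2 were the low ones, and KO libraries 1 and 2 measured -0.52 ± 0.19 against WT libraries 3 and 4 (adjusted p = 0.0683). Fgfr1 (1.0 ± 0.25 and -0.62 ± 0.25), Zfp532 (0.87 ± 0.26 and -0.65 ± 0.26) and the chloride cotransporter Slc12a2 (0.90 ± 0.13 and -0.37 ± 0.13) were also positive in numbers 1 and 2 and negative in numbers 3 and 4. Fgfr1 was not called in numbers 1 and 2 without KO library 1 (0.91) or WT library 2 (0.84), nor Zfp532 without KO library 1 (0.83), KO library 2 (0.92), WT library 1 (0.68), WT library 2 (1.10) or WT library 4 (0.86).

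In numbers 1 and 2, with mean CPM of at least 30, the genes that fell most included Ly6c2, Prg2 and Elane. Ly6c2, the monocyte surface antigen Ly6C (one of a family of close paralogs), measured 793, 858, 369 and 411 CPM in WT and 22.7, 73.2, 349 and 355 CPM in KO. Prg2, the eosinophil major basic protein, measured 278, 233, 22.0 and 25.8 CPM in WT and 4.35, 25.1, 11.3 and 20.9 CPM in KO. Ly6c2 fell also against WT libraries 3 and 4 (-3.02 ± 0.37), while Prg2 did not pass against them (-0.70 ± 0.52, adjusted p = 0.368). Tifab, a TRAF6 regulator in blood progenitors, measured 165, 164, 179 and 186 CPM in WT and 19.1, 39.6, 141 and 144 CPM in KO, and Ly86, the MD-1 partner of a Toll-like receptor homolog, 52.8, 73.3, 66.8 and 77.8 CPM in WT and 8.78, 15.6, 64.2 and 63.7 CPM in KO. In both genes WT libraries were level across numbers and KO libraries 1 and 2 lay below the 6 others. Fcgr3 (-2.76 ± 0.15), the lectin receptor Clec12a (-2.66 ± 0.12), Igsf6 (-2.49 ± 0.15) and the heparan sulfate proteoglycan Gpc1 (-2.43 ± 0.10) fell against both WT pairs, with -1.26 ± 0.15, -1.36 ± 0.12, -0.99 ± 0.14 and -1.11 ± 0.09 against WT libraries 3 and 4. Dstn, an actin depolymerizing factor, gave -2.21 ± 0.10 and -0.45 ± 0.09 against the 2 pairs. Pglyrp1, a granule peptidoglycan receptor, measured 118, 123, 27.9 and 33.1 CPM in WT and 28.4, 24.2, 27.8 and 30.1 CPM in KO. Only WT libraries 1 and 2 stood apart for Pglyrp1, and against WT libraries 3 and 4 it was -0.21 ± 0.10 (adjusted p = 0.138). Vcam1, an adhesion molecule, measured 94.0, 101, 5.06 and 5.11 CPM in WT and 8.14, 31.9, 3.08 and 3.94 CPM in KO, lower than WT libraries 1 and 2 (-2.28 ± 0.40) and higher than WT libraries 3 and 4 (1.98 ± 0.42).

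Genes that rose most in numbers 1 and 2, beside Xist and Cxcl12, encode a transporter, receptors, a cyclin and an enzyme. Ccnd1, cyclin D1, measured 31.4, 33.8, 32.8 and 32.8 CPM in WT and 80.9, 70.7, 37.6 and 37.9 CPM in KO. Its WT libraries were level, and KO libraries 1 and 2 lay above all others (1.22 ± 0.10, and 1.21 ± 0.10 against WT libraries 3 and 4). Selp, P-selectin of platelets, measured 48.0, 48.7, 35.1 and 30.7 CPM in WT and 125, 113, 31.0 and 28.6 CPM in KO (1.30 ± 0.11 and 1.86 ± 0.12), and the scaffold gene Shank3 32.8, 30.7, 38.3 and 28.3 CPM in WT and 106, 74.1, 34.5 and 32.5 CPM in KO (1.5 ± 0.21 and 1.43 ± 0.21). Slc22a3, an organic cation transporter, measured 47.8, 52.8, 83.9 and 81.0 CPM in WT and 168, 144, 87.7 and 88.4 CPM in KO (1.64 ± 0.09 and 0.92 ± 0.09). Car2, carbonic anhydrase of red cell precursors (1.41 ± 0.12 and 0.70 ± 0.12), Serpina3g (1.57 ± 0.15 and 0.64 ± 0.15) and Vldlr, a lipoprotein receptor that is also an ATF4 target (1.52 ± 0.16 and 0.58 ± 0.16), passed against both WT pairs. Il1r1, the interleukin-1 receptor, measured 21.2, 20.9, 45.2 and 42.3 CPM in WT and 52.8, 43.4, 42.5 and 40.8 CPM in KO, so KO libraries 1 and 2 reached the level of WT libraries 3 and 4 (1.19 ± 0.10 and 0.14 ± 0.10, the second with an adjusted p of 0.364). Psrc1, a spindle protein and p53 target, did the same (1.32 ± 0.10 and 0.23 ± 0.10, adjusted p = 0.113).

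Gene lists were read by how many members passed in numbers 1 and 2, by their median log2 fold change, and by the same values against WT libraries 3 and 4. Over all tested genes the median was 0.01 in numbers 1 and 2, -0.01 in numbers 3 and 4, and 0.01 for KO libraries 1 and 2 against WT libraries 3 and 4. Of all tested genes, 8.23% were higher and 10.2% lower in numbers 1 and 2, and 10.9% and 12.4% against WT libraries 3 and 4. In numbers 3 and 4, 6.18% and 5.21% had an unadjusted p under 0.05 upward and downward. By sign alone, 7162 of the 15181 tested genes were positive there and 7954 negative. The lists were assembled with earlier results of these data known, so their counts describe them and are not independent evidence of direction.

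Primary granule genes had 14 of 16 members lower and 0 higher in numbers 1 and 2, with a median of -1.61. They include the proteases and peroxidase of promyelocytes, but also other genes such as Calr, Gstm1 and Igfbp4. Their summed level was 28400, 31700, 16400 and 18000 CPM in WT and 8860, 9240, 17600 and 18300 CPM in KO. KO libraries 1 and 2 lay below all 6 others, and WT libraries 1 and 2 lay far above. Against WT libraries 3 and 4, 11 of 16 were lower and 1 higher (median -0.77). The medians per number were -1.50, -1.70, 0.13 and 0.02. Mpo, myeloperoxidase, measured 13180, 14820, 7949 and 8276 CPM in WT and 3047, 3591, 8021 and 8126 CPM in KO, and Prtn3, proteinase 3, 2938, 3209, 1446 and 1697 CPM in WT and 689.5, 664, 1557 and 1683 CPM in KO. The drop of Mpo was -2.08 ± 0.08 against WT libraries 1 and 2 and -1.29 ± 0.08 against WT libraries 3 and 4, that of Prtn3 -2.18 ± 0.08 and -1.22 ± 0.08, that of Elane -3.71 ± 0.15 and -1.97 ± 0.14, and that of the glutathione transferase Gstm1 -1.99 ± 0.07 and -0.97 ± 0.07. Late neutrophil genes had 15 of 21 members lower and 0 higher in numbers 1 and 2, with S100a9, a calprotectin subunit, at 35.8, 39.4, 6.81 and 9.83 CPM in WT and 0.707, 1.29, 13.4 and 16.4 CPM in KO. KO libraries 1 and 2 were near 1 CPM and KO libraries 3 and 4 were above WT libraries 3 and 4 (0.85 ± 0.19, adjusted p = 0.234). In numbers 3 and 4, 6 of these 21 genes had an unadjusted p under 0.05 upward, 1 of them called, and 1 downward.

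In the list of the NADPH oxidase, which makes superoxide in phagocytes, 7 of 8 members were lower in numbers 1 and 2 (median -0.66). Against WT libraries 3 and 4, 6 of 8 were lower (-0.70). These counts include Cybasc3, which is not a subunit of this oxidase and was among the lower members in numbers 1 and 2. Ncf1 measured 305, 306, 212 and 222 CPM in WT and 107, 116, 204.4 and 194 CPM in KO, and Ncf4 fell by -0.97 ± 0.09. Of 16 C-type lectin receptors, 7 were lower and 2 higher in numbers 1 and 2, and 4 had an unadjusted p under 0.05 downward in numbers 3 and 4. Olr1, a scavenger receptor for oxidized lipoprotein, measured 17.3, 15.6, 1.36 and 1.33 CPM in WT and 0.163, 0.484, 0.828 and 0.582 CPM in KO.

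Monocyte and macrophage genes had 20 of 24 members lower and 1 higher in numbers 1 and 2, and 19 lower and 2 higher against WT libraries 3 and 4, with medians of -1.17 and -1.15. For numbers 3 and 4, 0 passed, 21 of 24 were negative, and 9 had an unadjusted p under 0.05 downward. Summed levels were 3250, 3540, 3250 and 3330 CPM in WT libraries 1 to 4, which is nearly level, and 827, 1230, 2680 and 2680 CPM in KO, each below every WT library. The median per number was -1.65, -0.82, -0.35 and -0.26. Csf1r, the M-CSF receptor, measured 139, 155, 182 and 177 CPM in WT and 28.3, 41.5, 139 and 134 CPM in KO (-2.07 ± 0.14 and -0.40 ± 0.14), and Irf8, a transcription factor needed for monocytes and dendritic cells, 445, 436, 623 and 653 CPM in WT and 91.5, 152, 456 and 469 CPM in KO (-1.86 ± 0.17 and -0.47 ± 0.16). Itgam, the CD11b integrin chain, measured 76.7, 72.6, 40.4 and 33.9 CPM in WT and 22.0, 26.9, 29.2 and 28.0 CPM in KO (-1.61 ± 0.11 and -0.38 ± 0.11), and F13a1, a coagulation factor subunit of monocytes, 672, 788, 583 and 553 CPM in WT and 134, 212, 446 and 441 CPM in KO (-2.08 ± 0.16 and -0.36 ± 0.16). In all 4 genes KO lay below WT in each number, no KO library overlapped a WT library for Itgam and F13a1, and none passed after adjustment in numbers 3 and 4.

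Myeloid transcription factors split, with 11 of 26 lower and 5 higher in numbers 1 and 2. Gfi1, a repressor needed for neutrophils, measured 153, 134, 53.5 and 56.6 CPM in WT and 38.6, 39.9, 51.6 and 48.1 CPM in KO (-1.87 ± 0.08, and -0.49 ± 0.08 against WT libraries 3 and 4). Cebpe, of late granulocyte differentiation, measured 63.4, 58.9, 14.3 and 16.2 CPM in WT and 4.91, 9.80, 11.9 and 13.5 CPM in KO (-3.05 ± 0.22 and -1.05 ± 0.21), and Cebpd 52.4, 49.1, 33.1 and 39.8 CPM in WT and 15.9, 13.1, 32.6 and 36.8 CPM in KO (-1.81 ± 0.11 and -1.33 ± 0.11). Gata2, a factor of stem cells and mast cells, measured 146, 131, 199.8 and 203 CPM in WT and 318, 244, 212 and 207 CPM in KO (1.01 ± 0.11 and 0.48 ± 0.10). Cytokine receptors had 10 of 22 members lower and 3 higher in numbers 1 and 2, and 14 lower and 0 higher against WT libraries 3 and 4. Numbers 3 and 4 had 0 past the threshold, while 20 of 22 were negative and 7 had an unadjusted p under 0.05. Ifngr1 measured 246, 245, 152 and 167 CPM in WT and 114, 126, 156 and 157 CPM in KO and the TNF receptor Tnfrsf1b 129.5, 138, 97.8 and 93.8 CPM in WT and 72.4, 70.2, 88.8 and 88.7 CPM in KO. Flt3, the FLT3 ligand receptor, was -0.25 ± 0.09 in numbers 3 and 4 and -0.25 ± 0.09 in numbers 1 and 2, neither passing, though the second had an adjusted p of 0.029 with a replicate block. In the mast cell, basophil and eosinophil list (21 of 24 tested), 12 were lower and 3 higher in numbers 1 and 2, but 3 lower and 3 higher against WT libraries 3 and 4. Hdc, histidine decarboxylase, measured 126, 129, 66.8 and 68.0 CPM in WT and 76.7, 62.6, 67.4 and 66.9 CPM in KO, with WT libraries 1 and 2 alone set apart.

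Stem and multipotent progenitor genes had 12 of 25 members higher and 0 lower in numbers 1 and 2, and the same counts against WT libraries 3 and 4. The medians were 0.84 and 0.39, and -0.15 in numbers 3 and 4, where 7 were positive. Angpt1, the TIE2 ligand, measured 146, 165, 144 and 133 CPM in WT and 312, 298, 150.2 and 142 CPM in KO, and Meis1, a HOX cofactor, 66.8, 59.9, 80.7 and 74.8 CPM in WT and 128, 123, 80.0 and 80.7 CPM in KO. For both, KO libraries 1 and 2 lay above the 6 others, which were close together. Hlf, a stem cell transcription factor, was 0.84 ± 0.10 in numbers 1 and 2 and -0.28 ± 0.10 in numbers 3 and 4, and Esam 1.48 ± 0.20 and -0.11 ± 0.19. Megakaryocyte genes (21 of 22 tested) had 9 higher and 0 lower in numbers 1 and 2 and 12 higher and 0 lower against WT libraries 3 and 4. F2r, a thrombin receptor, measured 39.8, 44.5, 51.1 and 47.9 CPM in WT and 118, 86.1, 58.5 and 55.7 CPM in KO, and Vwf, von Willebrand factor, 62.8, 68.7, 51.3 and 43.0 CPM in WT and 123, 108, 50.6 and 44.5 CPM in KO. Erythroid genes (25 of 26 tested) had 10 higher and 1 lower in numbers 1 and 2, and 6 higher and 1 lower against WT libraries 3 and 4. Their medians per number were 0.55, -0.07, 0.17 and 0.21, so numbers 1 and 2 did not move alike. Summed levels were 1140, 1160, 1340 and 1400 CPM in WT and 1940, 1550, 1480 and 1500 CPM in KO. Gata1 measured 14.1, 14.6, 20.3 and 23.4 CPM in WT and 39.4, 27.3, 25.4 and 27.4 CPM in KO, and its KO level was above every WT library in all 4 numbers (1.21 ± 0.15 and 0.27 ± 0.14, adjusted p = 0.497). Among sort gate genes, Fcgr2b fell (-0.89 ± 0.07) and Cd34 (0.41 ± 0.07) and Ly6a (1.15 ± 0.20), which encodes Sca-1, rose in numbers 1 and 2. Ly6a measured 11.8, 11.6, 33.3 and 43.6 CPM in WT and 19.9, 32.0, 40.6 and 45.2 CPM in KO, so WT libraries 1 and 2 were the low ones, and against WT libraries 3 and 4 it was -0.57 ± 0.19. MHC class II genes (1 of 11 lower, 0 higher) and lymphoid genes (1 of 25 higher, 0 lower) mostly did not pass in numbers 1 and 2. Against WT libraries 3 and 4, 4 of 11 and 4 of 25 were lower and 0 higher, with 12.4% of all genes lower. Lymphoid sums were 754, 878, 846 and 853 CPM in WT libraries and 467, 952, 692 and 679 CPM in KO libraries, with KO libraries 1 and 2 at the 2 extremes.

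**Figure D3:**
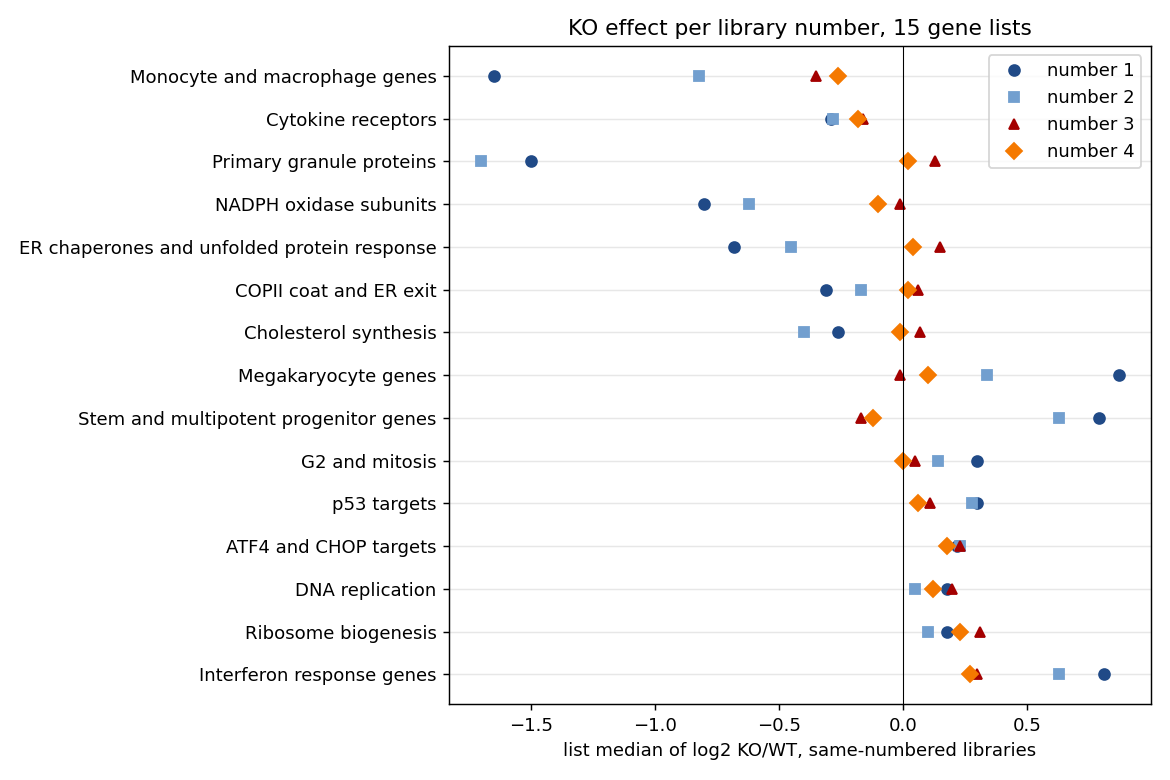
Median log2 KO/WT of 15 gene lists between libraries of the same number, 1 symbol per number. Monocyte genes and cytokine receptors lie left of 0 and ATF4 targets, DNA replication, ribosome biogenesis and interferon genes right of 0 in all 4 numbers, while granule, NADPH oxidase, ER chaperone, stem cell and megakaryocyte lists are displaced mainly in numbers 1 and 2.

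Among 4 lists, of the secretory route in which TRAPP acts and of calcium stores, only the ER chaperone list had most members pass as lower in numbers 1 and 2. That count differed with the WT pair used. By sign alone most members were negative in each list, with 28 of 28 ER chaperone, 19 of 22 COPII, 23 of 25 COPI and 15 of 21 calcium store genes. ER chaperones and unfolded protein response genes had 23 of 28 members lower and 0 higher (median -0.57). Against WT libraries 3 and 4, 3 were lower and 0 higher (-0.14), and 18 of 28 were higher in WT libraries 1 and 2 than in WT libraries 3 and 4. Ero1l, an ER oxidase, measured 144, 148, 74.7 and 70.7 CPM in WT and 64.2, 75.9, 72.1 and 64.6 CPM in KO, and P4hb, a protein disulfide isomerase, 1211, 1340, 809.6 and 894 CPM in WT and 783, 768, 894 and 909 CPM in KO. For Ero1l and P4hb, WT libraries 1 and 2 were high and the other 6 libraries lay together. In the COPII and ER exit list 10 of 22 were lower and 1 higher against WT libraries 1 and 2, but 1 lower and 6 higher against WT libraries 3 and 4. Surf4, a cargo receptor, measured 324, 357, 241 and 249 CPM in WT and 234, 238, 259 and 254 CPM in KO. COPI and Golgi genes gave 8 of 25 lower and 0 higher, against 2 lower and 6 higher, with Gorasp1, a Golgi stacking protein, at 48.3, 44.9, 32.0 and 32.4 CPM in WT and 31.2, 29.8, 34.5 and 35.7 CPM in KO. Of 21 calcium store channels and pumps, 4 were lower and 0 higher (10.2% and 8.23% of all genes), and 1 lower and 1 higher against WT libraries 3 and 4 (12.4% and 10.9%). No member of these 4 lists passed in numbers 3 and 4.

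Cholesterol synthesis genes, with 14 of 26 lower and 1 higher in numbers 1 and 2, had 10 lower and 1 higher against WT libraries 3 and 4. Fdps, farnesyl diphosphate synthase, measured 88.6, 93.0, 75.7 and 92.7 CPM in WT and 41.6, 40.01, 81.3 and 98.5 CPM in KO. KO libraries 1 and 2 lay below the 6 others for Fdps. Autophagy and lysosome genes had 14 of 30 lower and 1 higher, and 11 lower and 0 higher against WT libraries 3 and 4. Neu1, a lysosomal sialidase, fell by -1.48 ± 0.11 and -0.66 ± 0.10, and the protease Ctsb by -0.71 ± 0.07 and -0.45 ± 0.07. Among torsins and nuclear envelope cofactors 7 of 14 were lower and 1 higher in numbers 1 and 2, and 5 had an unadjusted p under 0.05 downward in numbers 3 and 4. Sun2, a LINC complex protein, measured 584, 567, 300.4 and 279.7 CPM in WT and 237, 239.8, 271 and 247 CPM in KO, Tor1a, an ATPase of the ER and nuclear envelope, gave -0.70 ± 0.11, and the nesprin Syne1 -1.35 ± 0.22 against WT libraries 1 and 2 and 0.29 ± 0.22 against WT libraries 3 and 4. S100 proteins and annexins (15 of 16 tested) had 6 lower and 2 higher, and antioxidant enzymes 6 of 21 lower and 5 higher.

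**Figure D4:**
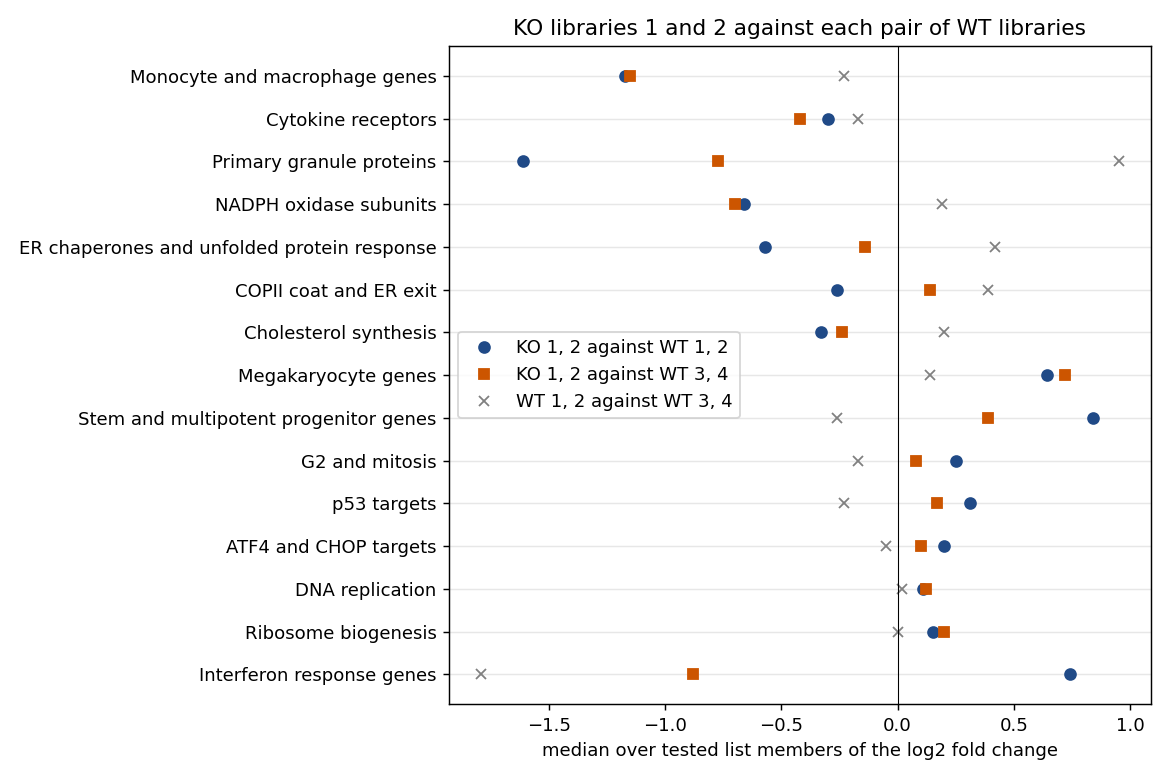
Median log2 fold change of the same 15 lists for KO libraries 1 and 2 against WT libraries 1 and 2 (circles), against WT libraries 3 and 4 (squares), and for WT 1 and 2 against WT 3 and 4 (crosses). Monocyte, NADPH oxidase and megakaryocyte medians nearly coincide, the ER chaperone median moves from -0.57 to -0.14, and the COPII and interferon medians change sign.

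Among stress and cell cycle lists, members that passed in numbers 1 and 2 were mostly higher. In the p53 list 10 of 28 members were higher and 2 lower in numbers 1 and 2, and 9 higher and 6 lower against WT libraries 3 and 4. Phlda3, an AKT inhibitor induced by p53, measured 1.65, 1.02, 6.67 and 7.41 CPM in WT and 8.52, 8.71, 8.69 and 8.32 CPM in KO, so only WT libraries 1 and 2 were apart. Perp, a desmosomal p53 effector, measured 2.06, 1.87, 4.10 and 5.05 CPM in WT and 11.5, 7.32, 4.96 and 6.59 CPM in KO. Of the BCL2 family (17 of 18 tested), 3 were higher and 2 lower, a count not far from the 8.23% and 10.2% of all genes. The antiapoptotic Bcl2l1 measured 16.1, 17.2, 19.1 and 23.3 CPM in WT and 32.8, 31.4, 24.9 and 25.2 CPM in KO. CDK inhibitors and D cyclins (9 of 10 tested) had 5 higher and 0 lower, and 4 higher and 0 lower against WT libraries 3 and 4. G2 and mitosis genes had 13 of 28 higher and 0 lower in numbers 1 and 2, and 8 higher and 3 lower against WT libraries 3 and 4. Ccnb1, cyclin B1, measured 83.3, 79.5, 92.7 and 94.3 CPM in WT and 123, 109, 97.6 and 89.9 CPM in KO, and Top2a, a topoisomerase, changed by 0.33 ± 0.07. Of 20 DNA damage signalling genes none passed in numbers 1 and 2, but 7 were higher and 1 lower against WT libraries 3 and 4. Of all tested genes, 10.9% were higher and 12.4% lower in that comparison.

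ATF4 and CHOP targets, the amino acid arm of the stress response, had 8 of 24 members higher and 2 lower in numbers 1 and 2. Of these 24, 19 were positive in numbers 3 and 4 and 12 had an unadjusted p under 0.05 upward and 0 downward, with 0 passing after adjustment. The medians per number were 0.22, 0.23, 0.23 and 0.18. Slc7a5, a large amino acid transporter, measured 129, 130.2, 141 and 131 CPM in WT and 179, 179.6, 168 and 149.6 CPM in KO, and Aars, alanyl-tRNA synthetase, 100, 109, 111 and 115 CPM in WT and 134, 128, 126 and 133 CPM in KO. No KO library overlapped a WT library for Slc7a5 or Aars. Nars, asparaginyl-tRNA synthetase, fell in numbers 1 and 2 (-0.43 ± 0.06) and was 0.20 ± 0.06 in numbers 3 and 4. Ribosome biogenesis genes had 3 of 24 higher and 0 lower in numbers 1 and 2, near the 8.23% of all genes, and 10 higher and 0 lower against WT libraries 3 and 4 (10.9% of all genes higher). All 24 were positive in numbers 3 and 4, 20 had an unadjusted p under 0.05 (6.18% of all genes upward), and 0 passed. Summed levels were 6170, 6470, 6060 and 6630 CPM in WT and 7590, 6910, 7700 and 8130 CPM in KO, each KO library above every WT library. Mybbp1a, a nucleolar MYB-binding protein, measured 453, 476, 469 and 459.8 CPM in WT and 551, 576, 546 and 538 CPM in KO, and Polr1b, an RNA polymerase I subunit, 79.9, 80.5, 83.2 and 84.2 CPM in WT and 103, 100, 93.3 and 94.2 CPM in KO, neither with overlap. DNA replication genes had 4 of 28 higher and 0 lower in numbers 1 and 2, while in numbers 3 and 4, 25 were positive and 12 had an unadjusted p under 0.05 upward.

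Interferon response genes lay above WT at the median in every number, with log2 ratios of 0.81, 0.63, 0.30 and 0.27. In numbers 1 and 2, 19 of 26 were higher and 1 lower, and in numbers 3 and 4, 24 were positive and 13 had an unadjusted p under 0.05 upward, with 0 passing. The WT level moved more than the KO effect, with 23 of 26 lower in WT libraries 1 and 2 than in WT libraries 3 and 4. Against WT libraries 3 and 4, KO libraries 1 and 2 had 19 of 26 lower and 1 higher. Rsad2, an antiviral enzyme, measured 5.998, 6.22, 21.4 and 20.3 CPM in WT and 14.2, 15.9, 29.6 and 27.7 CPM in KO, and Oasl2, an oligoadenylate synthetase-like protein, 18.2, 16.7, 62.8 and 60.4 CPM in WT and 34.9, 30.9, 76.9 and 84.3 CPM in KO. Immediate early genes had 1 of 20 higher and 2 lower in numbers 1 and 2, and 2 higher and 10 lower against WT libraries 3 and 4. Nr4a1, an orphan nuclear receptor induced by stimulation, measured 191, 138, 189 and 171 CPM in WT and 238, 318, 243 and 250.5 CPM in KO. Of 18 histone genes, 1 was lower and 0 higher in numbers 1 and 2, and 12 were lower against WT libraries 3 and 4.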

How the data were processed

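The 8 CMP libraries, 4 per genotype, were analysed together with 7 GMP libraries that add to the estimate of spread. The deposited value is an expected count (estimated count) per gene symbol and library, not scaled. Libraries came from a SMARTER mRNA-Seq kit, per the labels' protocols. Alignment used HISAT and mm10, per the submitters' processing notes. For the counting tool, its annotation and its strand setting, nothing is stated (not given in the sources used here). Among 40915 values from 1 to 40, 38% were multiples of 4. That share does not settle the unit, so 4 units a fragment is an assumption, and the fragment totals rest on it. Of KO GMP, library 2 is not used here.

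Values were rounded and tested with R 4.3.3 and edgeR 4.0.16 (filterByExpr on groups, 15181 of 23337 symbols, TMM, quasi-likelihood). The effect over all numbers came from 4 group coefficients. The other effects came from 8 coefficients, each a group within a number set, with 7 degrees of freedom left. P-values are two-sided with Benjamini-Hochberg adjustment over all tested genes and a threshold of 0.05. Values after ± are standard errors. CPM are TMM-scaled, ratios of same-numbered libraries use CPM + 0.5. Same-numbered KO and WT libraries deviated together (correlations of 0.20, 0.42, 0.19 and 0.61 over 10218 genes with mean CPM of at least 5). Of the WT libraries, 3 correlated best with the KO library of their own number. Within a set the correlation was -0.007 for numbers 1 and 2 and 0.59 for numbers 3 and 4. Libraries were paired by number only in the ratios and in the replicate block. The main fits held no term for such pairs, so their p-values ignore any pairing. The pipeline was tested on simulated data. Positions are from GENCODE M21 and promoters from RefSeq.

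Named genes are Trappc1 and sex-linked genes, the 12 higher and 12 lower with the largest change in numbers 1 and 2 (mean CPM of at least 30), the 8 and 8 with the largest change shared by both sets, the 5 and 5 most opposed, the 6 and 6 with the smallest p in numbers 3 and 4, the 5 and 5 over all numbers (each with mean CPM of at least 5), and up to 4 members of each of 37 lists by smallest p. The shared genes had to pass in numbers 1 and 2 and have an unadjusted p under 0.05 in numbers 3 and 4. Their KO also had to lie on the same side of WT in each number. Not every gene under this rule is printed. The members, number sets, rule and lists were chosen with earlier results of these data known. Alternatives tried were RLE factors, no filter, DESeq2, the 8 CMP libraries alone, leaving out KO GMP library 1, values divided by 4, a replicate block, the number set as a covariate, and leaving out each CMP library.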

Additional observations from a re-analysis of the deposited data

Results flagged for a closer look

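The KO effect in numbers 1 and 2 differed from that in numbers 3 and 4, by an interaction test in edgeR with an adjusted p under 0.05, for 90 of the 127 genes the text names. Many of the 127 were chosen for a large change in numbers 1 and 2 or for opposite signs in the number sets, so nothing is read from this count. Over all 15181 tested genes the shares were 3.05% upward and 4.59% downward. Negative differences (log2, numbers 1 and 2 minus numbers 3 and 4) were Ngp -7.14, Chi3l3 -6.33, S100a9 -6.07, Olr1 -4.69, Ly6c2 -3.96, Abca13 -3.82, Mgl2 -3.72, Elane -3.64, Cldn15 -3.58, Prg2 -3.55, Prss34 -3.12, Cebpe -2.79, Clec12a -2.73, Fcgr3 -2.40, Igsf6 -2.34, Gpc1 -2.26, Prtn3 -2.23, Ly86 -2.19, Dstn -2.16, Tifab -2.13, Pglyrp1 -2.12, Mpo -2.07, Cxcl2 -2.01, Gstm1 -1.77, Cebpd -1.74, Gfi1 -1.73, Abca9 -1.72, F13a1 -1.72, Csf1r -1.68, Lta4h -1.68, Trappc1 -1.45, Neu1 -1.40, Irf8 -1.39, Ncf1 -1.33, Fdps -1.25, Itgam -1.23, Ttc39c -1.20, Ptpro -1.14, Sun2 -1.11, Ifngr1 -1.01, Ero1l -0.97, Ncf4 -0.90, Hdc -0.87, Lair1 -0.85, Tnfrsf1b -0.80, P4hb -0.80, Fcgr2b -0.79, Gorasp1 -0.74, Tor1a -0.68, Nars -0.63, Surf4 -0.60, Gatm -0.60, Ctsb -0.54, Eif3j -0.52 and Ung -0.43. Positive differences were Xist 8.74, Col1a2 3.70, Emp1 3.22, Sparc 3.12, Phlda3 2.41, Perp 1.93, Vldlr 1.82, Zmat3 1.66, Fgfr1 1.62, Esam 1.6, Cxcl12 1.55, Slc22a3 1.54, Zfp532 1.52, Shank3 1.49, Selp 1.44, Serpina3g 1.37, Car2 1.36, Slc12a2 1.27, Il1r1 1.26, Psrc1 1.22, Hlf 1.12, F2r 1.07, Ccnd1 1.01, Ly6a 0.99, Gata2 0.96, Gata1 0.94, Meis1 0.94, Angpt1 0.89, Cdkn1a 0.84, Rsad2 0.84, Vwf 0.80, Bcl2l1 0.71, Oasl2 0.53, Ccnb1 0.51 and Ifi47 0.44.

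In groups of 4 libraries, 1 library lay far from the other 3 by Dixon's criterion in 8 instances, and chance flags about 1 in 20 groups. These were, in CPM, Uty in KO library 2 at 18.7, Ung in WT library 3 at 60.1, Nolc1 in KO library 2 at 261, Gmds in KO library 1 at 38.7, Acox3 in WT library 4 at 64.6, Mxd4 in WT library 4 at 29.4, Gata1 in KO library 1 at 39.4 and Nr4a1 in KO library 2 at 318. In the other groups no library met the criterion.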

How the results depend on the processing

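Genes over the threshold by DESeq2 numbered 133 higher and 227 lower over all numbers, 73 and 65 in numbers 3 and 4, and 810 higher for the difference between number sets. With no filter on low counts, and with a replicate block, numbers 3 and 4 gave 2 higher and 2 lower. With the 8 CMP libraries alone the difference gave 420 genes lower, and named calls were lost for 6 genes in numbers 1 and 2 (Uty -0.45, Trappc2 -0.72, Trib1 0.38, Hspd1 0.30, Ncl 0.32, Mybbp1a 0.28), for Chi3l3 in numbers 3 and 4 (1.11) and for 10 differences (Prg2, Ptpro, Abca9, Ung, Ifi47, Gata1, Ly6a, Oasl2, Tor1a and Ccnb1). With 1 CMP library left out, counts ran from 0 to 2 higher and 0 to 48 lower over all numbers, 722 to 1289 and 1155 to 1703 in numbers 1 and 2, 0 to 9 and 0 to 37 in numbers 3 and 4, and 208 to 522 and 530 to 910 for the difference. The Trappc1 difference of mean log2 CPM (-1.45) ran from -1.71 to -1.15, with exact p-values of 0.0571 where a WT library was left out and 0.125 for swaps within numbers (replicate block, -1.45). Beyond the counts and Trappc1, the replicate block brought 9 values of named genes past the threshold (numbers 1 and 2: Ddx3y -0.37, Eif2s3y -0.24, Flt3 -0.25; numbers 3 and 4: Odc1 0.46, Clec10a -0.81; difference: Eif2s3y -0.45, Trappc10 -0.41, Acox3 -0.44, Syne1 -0.71) and changed no other call of them. Against WT libraries 3 and 4, added after the data were seen, the KO 1 and 2 effect changed sign for Ddx3y (0.09), Trappc10 (0.16), Trappc2 (0.04), Vcam1 (1.98), Isg15 (-1.75), Serpina3f (-0.24), Emp1 (-0.52), Cxcl2 (0.19), Ttc39c (0.38), Nars (0.11), Hdc (0.05), Ly6a (-0.57), Rsad2 (-0.47), Oasl2 (-0.90) and Syne1 (0.29). Against WT libraries 1 and 2, KO libraries 3 and 4 gave 2339 genes higher (15.4%) and 2518 lower (16.6%), with signs changed for Cxcl12 (-2.35), Emp1 (2.56), Fgfr1 (0.30), Ngp (-1.70), Cldn15 (-1.98), Cxcl2 (-0.70), Lta4h (-1.06), Ttc39c (-0.75), Eif3j (-0.27), Trib1 (-0.76), Clec10a (1.33), Chi3l3 (-1.33), Nars (-0.34), S100a9 (-1.34), Irf8 (0.07), Hlf (0.21), Col6a2 (-0.44) and Flt3 (0.50). No other alternative changed the sign of a named gene that had an unadjusted p under 0.05. The cause of these changes was not tested.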
